A study of Homo sapiens with 6 samples.

Results

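The integrin and laminin subunit genes were followed across 3 lines and 2 glucose concentrations of A2058, a widely used cell line from a human melanoma. Members were taken by name from the platform's annotation: genes called ITGA or ITGB (integrin alpha and beta subunits) and LAMA, LAMB or LAMC (laminin alpha, beta and gamma chains), followed only by a number or a letter. This gave 35 of the 19775 genes with a probe set assigned to a single gene, namely 18 integrin alpha, 7 integrin beta and 10 laminin genes, with 95 probe sets in all. Where a gene had several probe sets, the one with the highest mean over the arrays stood for it. The lines were a mock line (Mock), a line overexpressing TET2WT and a line overexpressing TET2M, which another label calls Mut. All 3 were grown for 7 days in DMEM whose glucose was high (4.5 g/L) or normal (1 g/L), and there was 1 Affymetrix array per line and concentration, 6 in total. The sources used here do not give how the constructs were introduced, whether a line is 1 clone, or what TET2M changes. The product of TET2 oxidises the methyl mark on cytosine, a step toward the removal of DNA methylation.

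Integrins are receptors made of an alpha and a beta subunit that span the cell membrane, bind proteins of the extracellular matrix or of other cells, and couple them to the actin cytoskeleton. Laminins are secreted trimers of an alpha, a beta and a gamma chain that polymerise in basement membranes, and the alpha chain carries the main sites to which integrins bind. In melanoma the beta 3 subunit paired with the alpha V subunit has long been studied for its part in invasion, and laminins form the basement membrane that melanoma cells cross when they leave the epidermis.

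On the log2 scale TET2 itself read 3.81 (high) and 4.13 (normal glucose) on the Mock arrays, 7.57 and 7.37 on the TET2M arrays, and 9.54 and 9.68 on the TET2WT arrays. A second TET2 probe set kept this order of the lines, and the third was nearly level, between 5.15 and 5.41 on the 6 arrays. With the mean of the TET2 probe sets the difference between TET2WT and Mock was 3.34 in place of 5.64. Of 11 melanocyte and melanoma markers with a single-gene probe set, 8 lay above the low-value level of 2.64 on all 6 arrays, among them SOX10, MITF, S100B and PRAME. The pigment genes MLANA, TYR and TYRP1 read below that level on all 6 arrays. The low-value level is the 40th percentile of probe set means. The median of each array lay between 2.96 and 3.03. Values are log2 probe set values, a difference of 1 is a 2-fold change, ± is limma's standard error, and a gene passed when limma's Benjamini-Hochberg adjusted p over all genes was under 0.05. There was 1 array for each combination, so the error came from how a difference varied over the 3 lines or the 2 concentrations, and a p-value measures no more than how single arrays vary, and that variation may be technical. Levels of different probe sets cannot be ranked against each other, and only differences within a probe set are compared.

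Of the 35 members, 32 passed the filter on low values and were tested among 14428 genes. The remaining 3 had means below it. They were the laminin genes LAMA1 (2.33 to 2.78 over the 6 arrays) and LAMB4 (2.19 to 2.57), and ITGAX (2.11 to 2.61), which encodes an alpha subunit of myeloid cells. All 32 tested members read above the low-value level on all 6 arrays. These are the collagen, fibronectin and laminin receptor subunits of adherent cells and also leukocyte subunits such as ITGAL and ITGAM. The collagen receptor gene ITGA11 read 3.08 to 3.50 and the laminin receptor gene ITGA7 3.30 to 3.45. ITGB1, the beta subunit shared by most receptors of adherent cells, was the steadiest of the members with a high reading, between 10.88 and 11.05. The heat map of the members shows that most genes varied little. LAMA5, ITGA9, ITGA1 and LAMA4 had the widest ranges over the arrays, at 2.22, 2.18, 1.26 and 1.14.

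**Figure D1:**
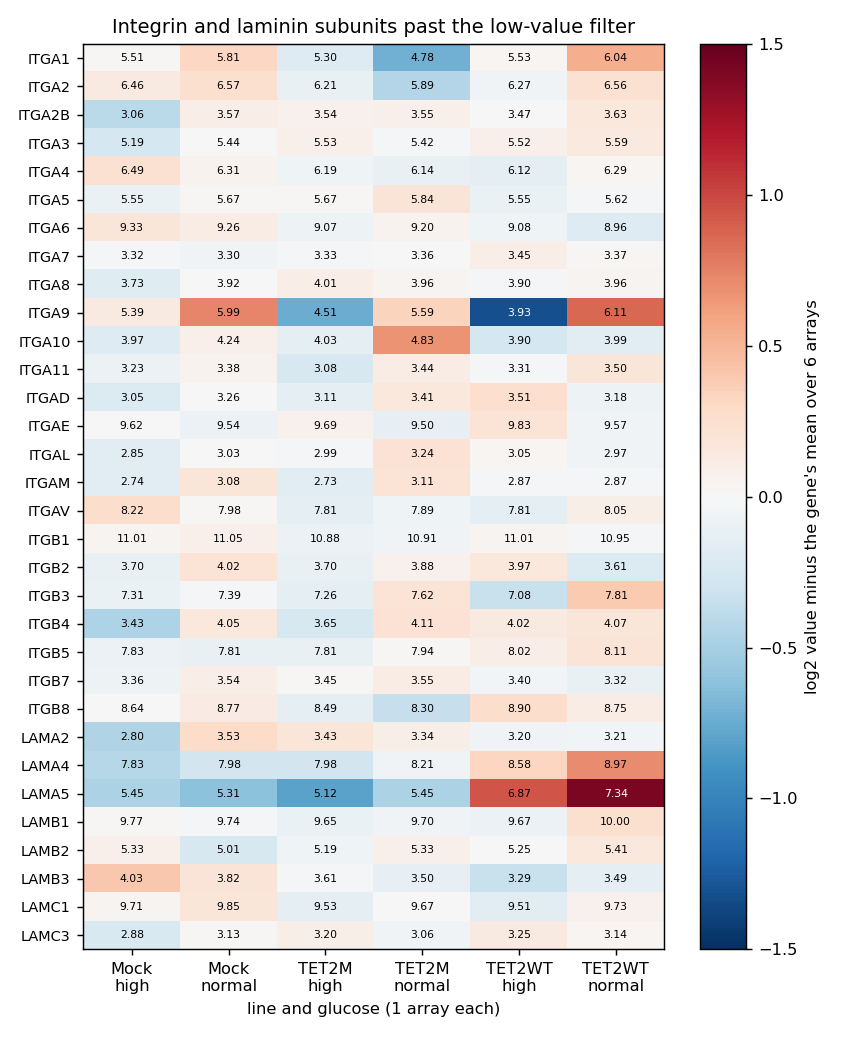
Log2 value (number in each cell) of the 32 tested integrin and laminin genes (rows) on the 6 arrays (columns), coloured by the difference from the gene's mean over the arrays. LAMA5 and LAMA4 are high on both TET2WT arrays, and ITGA9 is lowest in TET2WT at high glucose, where it read 3.93.

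Among the laminin chains, the alpha chain genes LAMA5 and LAMA4 were higher in TET2WT than in both other lines. LAMA5 and LAMA4 encode the alpha chains of 2 groups of laminins found in many basement membranes, with LAMA4 typical of vessel and mesenchymal basement membranes. The stretches just upstream of their start sites are shown because these are the 2 members that passed a test between lines, and because TET2 acts on cytosines of CpG dinucleotides, which are in capitals. Each is 250 bases on the gene's minus strand, 5′ to 3′, taken from RefSeq's promoter table (GRCh38.p14), for LAMA5 at chr20:62367313-62367562 and for LAMA4 at chr6:112254568-112254817.
LAMA5: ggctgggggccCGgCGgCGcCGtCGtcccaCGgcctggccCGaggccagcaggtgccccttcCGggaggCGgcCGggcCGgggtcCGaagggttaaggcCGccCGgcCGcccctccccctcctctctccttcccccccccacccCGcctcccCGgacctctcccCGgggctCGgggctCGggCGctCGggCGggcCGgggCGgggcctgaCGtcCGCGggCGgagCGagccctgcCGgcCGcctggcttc
LAMA4: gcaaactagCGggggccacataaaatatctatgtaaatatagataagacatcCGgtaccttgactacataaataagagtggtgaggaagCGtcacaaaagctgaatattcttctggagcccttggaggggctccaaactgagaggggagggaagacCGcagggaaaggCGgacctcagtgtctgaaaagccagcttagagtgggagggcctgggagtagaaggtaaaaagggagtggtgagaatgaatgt
The LAMA5 stretch holds 32 CpG dinucleotides and has a GC content of 82.8%, and the LAMA4 stretch holds 5 with a GC content of 48.4%. The median over the 27305 promoters of the table is 11 CpG, and over the 24 members that matched it is 12, from 1 to 32. LAMA5 has more CpG than 90.7% of all promoters and LAMA4 more than 35% of them. The 2 genes that passed therefore lie far apart in CpG content, and DNA methylation was not measured in these data. Of 4 patterns searched on both strands, whose matches may share bases, LAMA5 has the NF-kB pattern (GGG, any 5 bases, then CC) at 2 positions and LAMA4 has no match. That pattern occurs in 53.7% of all promoters and in 17 of the 24 members. TGANTCA (AP-1) was in 0 of 24 members and 6.6% of all promoters, GGAATG (TEAD) in 4 members and 11.9%, and CACGTG (E-box) in 1 member and 6.5%.

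On the Mock arrays LAMA5 read 5.45 (high) and 5.31 (normal glucose), on the TET2M arrays 5.12 and 5.45, and on the TET2WT arrays 6.87 and 7.34. Both TET2WT arrays lay above the other 4, and the Mock and TET2M arrays overlapped. The difference between TET2WT and Mock was 1.73 ± 0.16, or 3.31-fold (adjusted p = 0.00549, limma; higher at 2 of 2 concentrations). Between TET2WT and TET2M it was 1.82 ± 0.16, or 3.53-fold (adjusted p = 0.00504, limma; higher at 2 of 2 concentrations). These comparisons share the TET2WT arrays and are not independent. LAMA5 had 1 single-gene probe set, so no second reading of it was available.

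For LAMA4 the Mock arrays read 7.83 (high) and 7.98 (normal glucose), the TET2M arrays 7.98 and 8.21, and the TET2WT arrays 8.58 and 8.97. The TET2WT arrays were again the highest, and the TET2M arrays lay at or slightly above those of Mock at each concentration. TET2WT exceeded Mock by 0.87 ± 0.099, or 1.83-fold (adjusted p = 0.0112, limma; higher at 2 of 2 concentrations), and TET2M by 0.68 ± 0.099, or 1.6-fold (adjusted p = 0.0254, limma; higher at 2 of 2 concentrations). The other LAMA4 probe sets above the low-value level gave differences between TET2WT and Mock of 0.83, 0.67 and 0.32. They had the same sign as the probe set used and a smaller size. Between TET2WT and TET2M these sets gave 0.61, 0.545 and 0.05 in the same order. In the last of them TET2M was above TET2WT at normal glucose, at 3.84 against 3.73. With the mean of the LAMA4 probe sets the difference from TET2M was 0.47 and did not pass.

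LAMA5 and LAMA4 were the 2 of 32 members higher in TET2WT than in Mock, where 2.01% of all 14428 genes were higher, and also the 2 of 32 higher in TET2WT than in TET2M, where 1.86% were. In limma 0 members passed lower in these 2 comparisons, in which 2.2% and 1.43% of all genes were lower. An unadjusted p under 0.05 was found for 5 members between TET2WT and Mock, 2 of them lower, and for 5 between TET2WT and TET2M, 1 of them lower, where 20.2% and 17.6% of all genes had one. With a prior variance that follows intensity 2 members, LAMB3 and ITGA6, were lower than in Mock. The members' median difference between TET2WT and Mock was 0.088 against -0.01 over all genes, and the median absolute difference 0.14 against 0.13. At both concentrations 12 members were higher in TET2WT than in Mock, against 27.6% of all genes, and 6 lower, against 33.1%. Against TET2M these counts were 13 (29.9% of all genes) and 5 (28.8%). Markers of other cell types also differed between these lines. KRT14, a keratinocyte keratin, read 4.55 and 3.89 in TET2WT against 6.86 and 6.38 in Mock and 6.22 and 5.91 in TET2M, and the fibroblast matrix gene LUM 3.74 and 3.11 against 4.63 and 4.34 and 5.12 and 4.38. Both passed as lower in TET2WT than in Mock, at -2.40 and -1.06, and than in TET2M, at -1.85 and -1.33 (largest adjusted p = 0.0137, limma; lower at 2 of 2 concentrations). Among tested markers, 1 of 5 epithelial, 1 of 6 fibroblast and 0 of 5 endothelial genes passed as lower in TET2WT than in Mock. So did 1 of 3 blood cell genes (LYZ, -0.77) and 2 of 8 melanocyte and melanoma genes (MITF, -0.595, and CSPG4, -0.77). In these lists 0 passed as higher. LYZ also stood at -0.74 between TET2M and Mock, which did not pass (adjusted p = 0.0899, limma). The part of these markers in the members' differences was not tested. The passes of LAMA5 and LAMA4 rest on all 6 arrays. With any 1 array left out, which leaves 1 residual degree of freedom in place of 2, LAMA5 differed from Mock by 1.46 to 2.00 and LAMA4 by 0.77 to 0.97, with adjusted p from 0.133 to 0.227 and from 0.163 to 0.30 in limma.

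**Figure D2:**
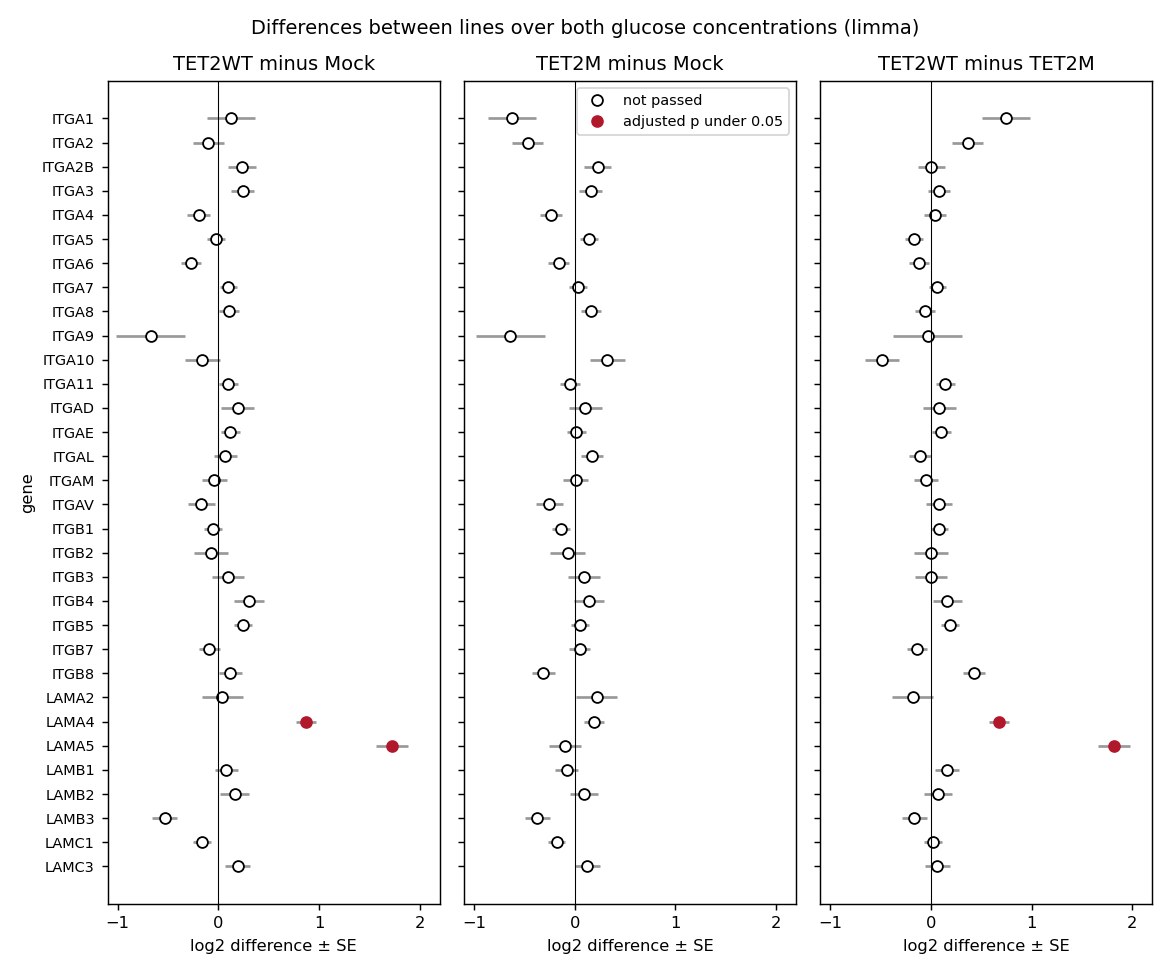
Log2 differences between lines over both glucose concentrations (points; bars are limma's standard error) for the 32 tested genes, with filled points for an adjusted p under 0.05. LAMA5 and LAMA4 are the filled points in both comparisons that involve TET2WT, and TET2M minus Mock has none.

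The genes around these 2 members in the order of the GRCh38.p14 reference had median differences near 0, with single genes farther away. Of the 20 tested genes nearest LAMA5 on chromosome 20, 10 on each side, the differences between TET2WT and Mock had a median of 0.045. SLCO4A1-AS1, 8 places away, was the 1 that passed, at 1.13 (adjusted p = 0.0172, limma). The nearest tested neighbours of LAMA5, ADRM1 and LAMA5-AS1, stood at 0.19 and -0.02. LAMA4 on chromosome 6 stood among 20 neighbours with a median of 0.005, of which CALHM6 passed at 0.53 (adjusted p = 0.0426, limma). The nearest tested neighbours of LAMA4, FAM229B and MARCKS, stood at 0.425 and 0.015. These neighbours were named after their values had been seen. The medians of all tested genes of chromosomes 20 and 6 were 0.005 and -0.025. Between TET2WT and TET2M the median on chromosome 20 was 0.145 over 441 genes, with 26 passing higher and 1 lower, and that of the neighbours of LAMA5 was 0.088, with 0 passing. On chromosome 6 the corresponding medians were -0.005 and 0.083. Between TET2WT and TET2M the neighbours of LAMA5 ranged from -0.285 to 0.605, with ADRM1 at 0.41. Those of LAMA4 ranged from -0.155 to 0.495, the highest being FAM229B, and 0 of them passed.

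**Figure D3:**
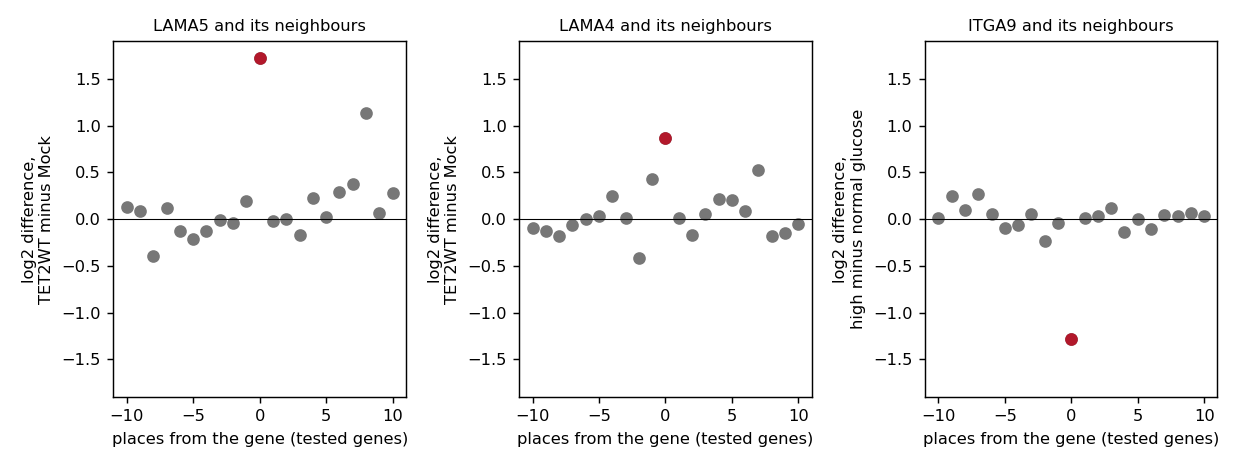
Log2 differences of the tested genes up to 10 places on either side of LAMA5, LAMA4 (both TET2WT minus Mock) and ITGA9 (high minus normal glucose), with the named gene at place 0 in red. The named gene is the farthest from 0 in each panel, and the grey point near 1.13 beside LAMA5 is SLCO4A1-AS1.

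The other laminin chains differed less between lines. LAMB3, the beta chain of the laminin of epithelial hemidesmosomes, read 4.03 (high) and 3.82 (normal glucose) on the Mock arrays, 3.61 and 3.50 on those of TET2M, and 3.29 and 3.49 on those of TET2WT. Both Mock arrays were the highest. TET2M lay 0.32 above TET2WT at high glucose and level with it at normal glucose. The difference was -0.54 ± 0.12 between TET2WT and Mock (adjusted p = 0.0760, limma; lower at 2 of 2 concentrations) and -0.37 ± 0.12 between TET2M and Mock (adjusted p = 0.440, limma; lower at 2 of 2 concentrations). LAMB1 and LAMC1, the beta and gamma chains that assemble with the LAMA4 and LAMA5 chains in the most widespread laminins, moved little. LAMB1 had its lowest reading at 9.65 and a range of 0.35 over the 6 arrays, LAMC1 read from 9.51 to 9.85, and TET2WT differed from Mock by 0.08 ± 0.11 and -0.16 ± 0.087. LAMB2, a beta chain of nerve, muscle and kidney basement membranes, ranged from 5.01 to 5.41. LAMA2, the alpha chain of muscle basement membrane, and LAMC3 ranged from 2.80 to 3.53 and from 2.88 to 3.25, with 0 arrays below the low-value level. None of these 5 genes passed in limma in any of the comparisons.

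Of the integrin subunits, ITGA9 had the largest glucose difference. ITGA9 encodes an alpha subunit that pairs with the beta 1 subunit and binds tenascin C, osteopontin and other ligands. Its readings were 5.39 (high) and 5.99 (normal glucose) in Mock, 4.51 and 5.59 in TET2M, and 3.93 and 6.11 in TET2WT. The high-glucose array was the lower one in each line, and the 3 high-glucose arrays lay below the 3 normal-glucose arrays without overlap. The difference between high and normal glucose was -2.18 in TET2WT, -1.08 in TET2M and -0.60 in Mock. Over the 3 lines it was -1.29 ± 0.28, which had rank 4 by absolute size among the 14428 genes and did not pass (adjusted p = 0.168, limma; 3 of 3 lines lower). Without either TET2WT array it was -0.84, and without either Mock array -1.63. With a prior variance that follows intensity ITGA9 passed at the same difference (adjusted p = 0.00639, limma). The test of the TET2WT response against the mean of Mock and TET2M gave -1.34 ± 0.27 (adjusted p = 0.531, limma). In that test 0 of 32 members and 0% of all genes passed. An unadjusted p under 0.05 was found in it for 5 members, against 9.18% of all genes. On simulated data the same test recovered 0% of 2-fold and 92.5% of 4-fold changes, so its lack of passes decides nothing about 2-fold responses.

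The ITGA9 probe sets had the same direction for glucose and differed in the order of the lines. A further ITGA9 probe set, read between 2.70 and 3.57, gave -0.87 in Mock, -0.52 in TET2WT and -0.52 in TET2M. The third above the filter gave -0.46, -0.21 and -0.04 in the same order. In both, Mock had the most negative difference, whereas TET2WT had it in the probe set used, which read higher. With the mean of the gene's probe sets above the filter, the glucose difference was -0.72 and the TET2WT-specific difference -0.38. The 20 tested genes nearest ITGA9 on chromosome 3 had glucose differences from -0.24 to 0.27.

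**Figure D4:**
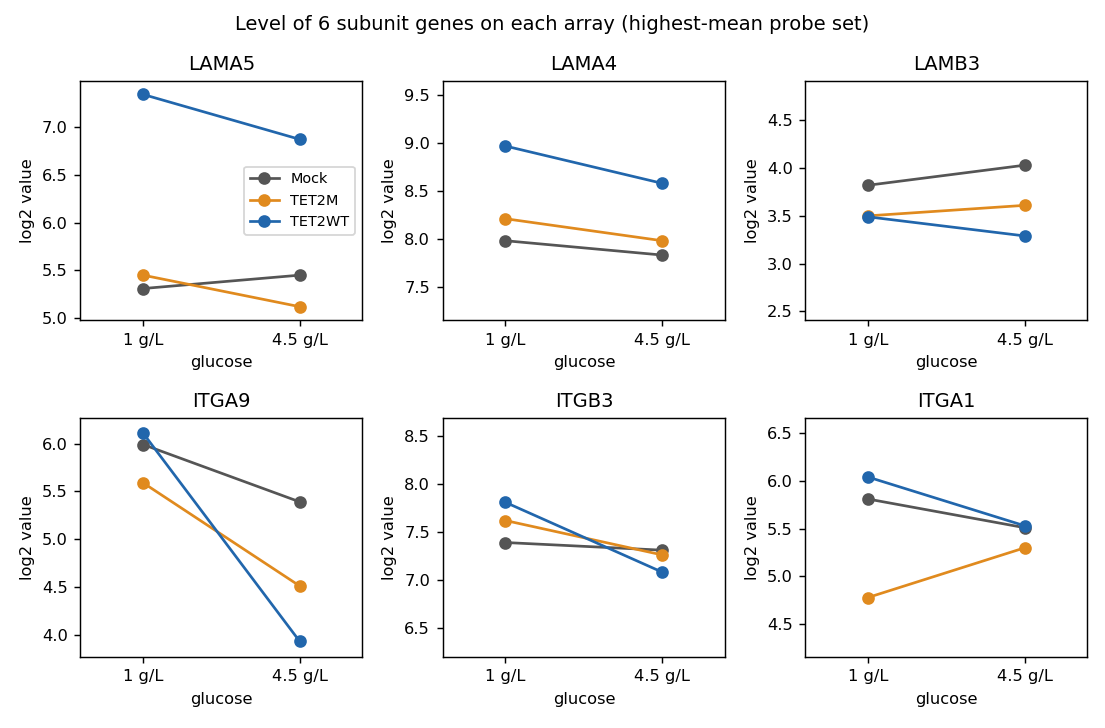
Log2 value of 6 subunit genes at 1 and 4.5 g/L glucose, with 1 point for each array, joined within a line. Each panel has its own vertical axis. TET2WT lies above the other lines for LAMA5 and LAMA4, ITGA9 is lower at 4.5 g/L in each line, and ITGA1 is lower at 4.5 g/L in 2 lines and higher in TET2M.

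The other members had small glucose differences. Of the 32 tested, 24 (75%, against 55.7% of all genes) had a negative and 7 a positive glucose difference and 1, LAMC3, stood at 0. The median was -0.068 against -0.02 over all genes and the median absolute difference 0.083 against 0.097. In limma 0 members passed, and 6 had an unadjusted p under 0.05, all lower, where 15.4% of all genes had such a p in either direction. Over all genes 0.00693% passed for glucose. With a prior variance that follows intensity 2 members passed lower, ITGA9 and LAMA4. A lower value at high glucose in all 3 lines was seen for 9 of 32 members, against 20.7% of all genes, and a higher one for 1 of 32, against 16.7%. The 9 were ITGA9, ITGB3, ITGB4, ITGA10, ITGA11, ITGA2B, ITGA5, LAMA4 and LAMC1. These counts use 1 probe set per gene. A further LAMA4 set above the filter gave 0.20 in TET2WT, 0.01 in Mock and -0.32 in TET2M, while the remaining ones were lower in each line. A further ITGA11 set above the filter gave 0.22, -0.36 and -0.26 in the same order. Some further ITGB3 and ITGB4 sets were also higher at high glucose in a single line. The 1 higher was ITGAE, the alpha subunit of intraepithelial T cells, at 0.18 ± 0.076.

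The beta 3 subunit gene ITGB3 read 7.31 (high) and 7.39 (normal glucose) on the Mock arrays, 7.26 and 7.62 on the TET2M arrays, and 7.08 and 7.81 on the TET2WT arrays. The high-glucose array was the lower one in each line, with differences of -0.08 in Mock, -0.36 in TET2M and -0.73 in TET2WT, and the 3 high-glucose arrays lay below the 3 at normal glucose. The difference over the lines was -0.39 ± 0.13 (adjusted p = 0.261, limma; 3 of 3 lines lower). The other ITGB3 probe sets above the filter gave -0.55, -0.53, -0.50, -0.25 and -0.12, the same direction with different sizes. Without either TET2WT array the difference of the probe set used was -0.22, and without either Mock array -0.55. Its partner ITGAV ranged from 7.81 to 8.22 with a glucose difference of -0.027 ± 0.11. ITGB4, which pairs with ITGA6 in hemidesmosomes, had a glucose difference of -0.38 ± 0.12 (adjusted p = 0.251, limma; 3 of 3 lines lower), and ITGA6 one of 0.02 ± 0.082. The further ITGB4 probe sets above the filter gave -0.073 and -0.0033, and the mean of its probe sets -0.15, so the larger difference rests on 1 probe set. The cartilage collagen receptor subunit ITGA10 stood at -0.39 ± 0.14, with -0.80 in TET2M, -0.27 in Mock and -0.09 in TET2WT. None of these 5 genes passed in limma.

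**Figure D5:**
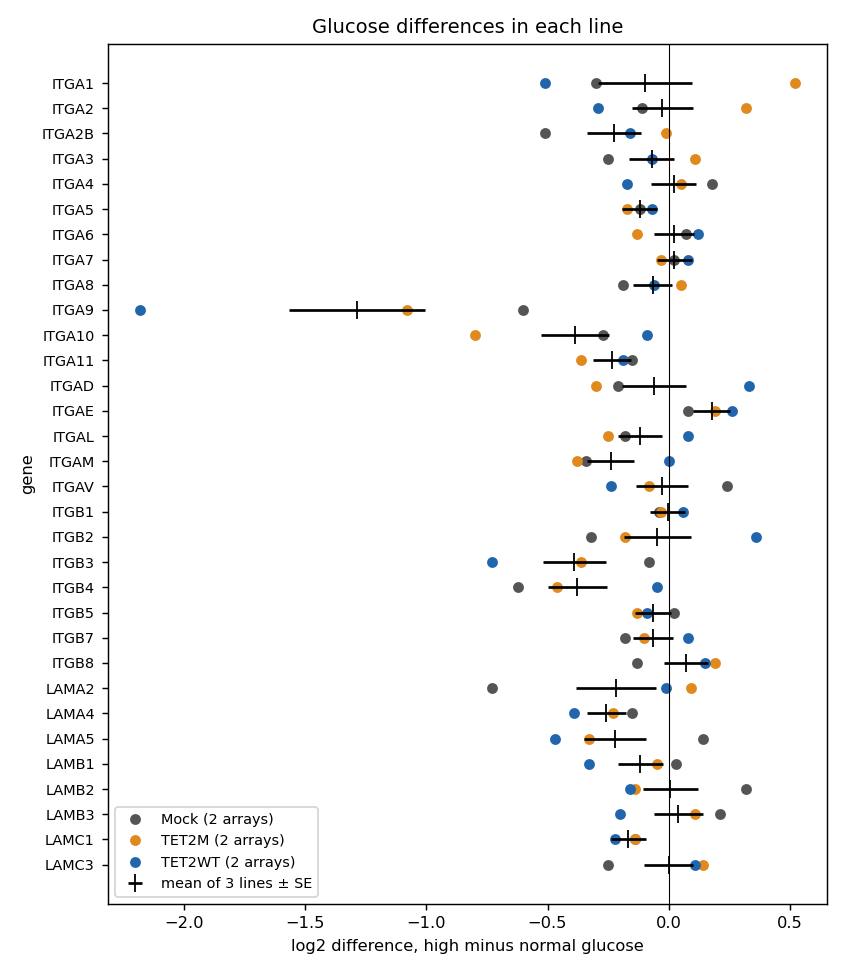
Log2 difference between high and normal glucose in each line (coloured points, 2 arrays each) and its mean over the 3 lines with limma's standard error (black) for the 32 tested genes. ITGA9 lies farthest to the left, from -0.60 in Mock to -2.18 in TET2WT, and most other genes lie within 0.5 of 0.

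Between TET2M and Mock 0 of 32 members passed in limma, where 0.097% of all genes did, and 4 members had an unadjusted p under 0.05, against 9.51% of all genes, all 4 lower in TET2M. They were ITGA1, ITGA2, ITGB8 and LAMB3. At both concentrations 9 members were higher in TET2M than in Mock (24.2% of all genes) and 11 lower (33.9%). ITGA1 and ITGA2 encode the alpha subunits of collagen receptors. ITGA1 read 5.51 (high) and 5.81 (normal glucose) on the Mock arrays, 5.53 and 6.04 on the TET2WT arrays, and 5.30 and 4.78 on the TET2M arrays. Both TET2M arrays were the lowest, by a wide margin at normal glucose and a narrow one at high glucose. The difference from Mock was -0.62 ± 0.24 (adjusted p = 0.492, limma; lower at 2 of 2 concentrations), and a further ITGA1 probe set gave -0.50. Without the TET2M array at normal glucose the difference was -0.16, and without that at high glucose -1.08. ITGA2 differed by -0.47 ± 0.15 (adjusted p = 0.440, limma; lower at 2 of 2 concentrations), with readings of 6.46 and 6.57 in Mock, 6.27 and 6.56 in TET2WT, and 6.21 and 5.89 in TET2M. The other ITGA2 probe set gave -0.15, with TET2M at 5.02 against 4.97 in Mock at high glucose and 4.84 against 5.18 at normal glucose, and the mean of both was -0.31. Without the TET2M array at normal glucose the ITGA2 difference was -0.21, and without that at high glucose -0.73. ITGA1 and ITGA2 lie 2 places apart on chromosome 5. The 20 tested genes nearest ITGA1 had a median of -0.15 between TET2M and Mock, against -0.035 over the 635 tested genes of that chromosome, and 0 of them passed.

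ITGB8, a beta subunit that binds latent TGF-beta together with ITGAV, read 8.64 and 8.77 in Mock, 8.90 and 8.75 in TET2WT, and 8.49 and 8.30 in TET2M. TET2M was the lowest line at both concentrations. The further ITGB8 probe sets above the filter gave -0.36, -0.32 and -0.21 between TET2M and Mock. The difference was -0.31 ± 0.11 from Mock (adjusted p = 0.469, limma; lower at 2 of 2 concentrations), and TET2WT exceeded TET2M by 0.43 ± 0.11 (adjusted p = 0.122, limma; higher at 2 of 2 concentrations). With the intensity-dependent prior ITGB8 and ITGA1 passed in the latter comparison, at an adjusted p of 0.00511 and 0.0340 in limma, which made 4 members higher in place of 2. In that comparison the further ITGB8 sets gave 0.34, 0.195 and 0.125. The set at 0.195 stood at -0.05 at high glucose, and the set at 0.125 at -0.13 at normal glucose. The fibronectin receptor gene ITGA5 (5.55 to 5.84), the laminin receptor gene ITGA3 (5.19 to 5.59) and the vitronectin receptor gene ITGB5 (7.81 to 8.11) each stayed within a range of 0.5 over the arrays. ITGA4, the alpha subunit that resembles ITGA9 most in its ligands, ranged from 6.12 to 6.49 and had a glucose difference of 0.02 ± 0.091. A further ITGA4 set above the filter, read between 3.51 and 4.86, gave 0.84 in Mock, -0.70 in TET2WT and 0.01 in TET2M. Against Mock, the ITGA4 sets above the filter stood from -0.58 to -0.18 in TET2WT and from -0.545 to -0.175 in TET2M. The set used did not pass in either comparison.

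With the probe set used for each gene, pairs of single arrays, which carry no test, differed at least 2-fold in 3 of the 32 members. Between the glucose concentrations this was 0 members in Mock, ITGA9 in TET2WT and ITGA9 in TET2M, where 0.152%, 0.187% and 0.166% of all genes differed as much. Between TET2WT and Mock it was ITGA9 and LAMA5 at high glucose (1.43% of all genes) and LAMA5 at normal glucose (1.56%). Between TET2WT and TET2M it was LAMA5 at high glucose (1.22%) and LAMA5 and ITGA1 at normal glucose (1.42%). Between TET2M and Mock it was 0 members at high glucose (0.236%) and ITGA1 at normal glucose (0.27%). At high glucose ITGA9 was 2.75-fold lower in TET2WT than in Mock, and at normal glucose the same lines differed by 0.12. Among probe sets not used, an ITGA4 set differed by -1.35 between TET2WT and Mock at high glucose. An ITGB3 set differed by -1.02 between high and normal glucose in TET2WT.

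Most subunits known chiefly from leukocyte integrins gave low readings. ITGAL, ITGAM, ITGAD and ITGB7 lay between 2.73 and 3.55 and ITGB2, the shared beta subunit of the first 3 of them, between 3.61 and 4.02. ITGAE and ITGA4, the alpha subunits that pair with ITGB7, read 9.5 to 9.83 and 6.12 to 6.49. ITGAE had 1 single-gene probe set, so no second reading of it was available. Readings of different probe sets do not rank these genes by expression. Of 6 blood cell markers, PTPRC, CD14 and PPBP were below the low-value level on all 6 arrays, and LYZ (5.39 to 6.35) and SPI1 (2.81 to 3.18) were above it on all 6. The further ITGAL and ITGAM probe sets also lay below that level on all 6 arrays, as did the further probe sets of ITGA8. The sets used for ITGA8 and ITGB2 have the suffix that marks possible cross-hybridisation. None of these integrin genes passed in a comparison. Of the other marker lists, 4 of 8 endothelial, 5 of 8 fibroblast and 4 of 7 epithelial genes lay above the low-value level on all 6 arrays, while the endothelial gene CDH5 and the epithelial genes CDH1 and EPCAM lay below it on all 6.

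Proteins that act with these subunits were taken from 7 lists of basement membrane proteins, integrin ligands, other laminin receptors, integrin regulators, focal adhesion proteins, tetraspanins and hemidesmosome proteins. Without the members they held 143 genes, of which 106 were tested. Between TET2WT and Mock 4 were higher and 10 lower, with a median of 0.03. These are 3.77% and 9.43% of the list genes, against 2.01% and 2.2% of all genes. Between TET2WT and TET2M 4 were higher and 7 lower, or 3.77% and 6.6% against 1.86% and 1.43%. For glucose and between TET2M and Mock 0 passed in limma. Among basement membrane proteins the collagen IV genes COL4A1 (-0.52 ± 0.089) and COL4A2 (-0.56 ± 0.092) were lower in TET2WT than in Mock and the fibulin gene FBLN1 (1.02 ± 0.10) was higher, with 3 of 13 tested passing. COL4A1 and COL4A2 are neighbours on chromosome 13, whose 257 tested genes had a median difference of -0.32 in the same comparison. No member lies on chromosome 13 (0 of 35).

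Of 20 tested integrin ligands, ICAM1 stood at -1.22 ± 0.15 between TET2M and Mock, which did not pass (adjusted p = 0.1015, limma). Its readings were 5.79 (high) and 5.81 (normal glucose) in TET2M, 6.89 and 7.15 in Mock, and 6.01 and 6.64 in TET2WT. SPP1, the osteopontin gene, was the 1 of the 20 that passed. It read 2.83 and 2.89 in TET2WT against 4.12 and 4.26 in Mock and 3.97 and 3.58 in TET2M, a difference from Mock of -1.33 ± 0.14 (adjusted p = 0.00997, limma; lower at 2 of 2 concentrations). Among 13 non-integrin laminin receptors and related genes, the syndecan genes SDC3 (1.04 ± 0.097) and SDC2 (0.78 ± 0.14) were higher in TET2WT than in Mock, and SDC4 (-0.57 ± 0.086) and the proteoglycan gene CSPG4 (-0.77 ± 0.14) were lower. Syndecans are membrane proteoglycans that bind matrix proteins through heparan sulfate, and their genes moved in both directions. Of 18 integrin regulators, the kindlin gene FERMT1 (-1.07 ± 0.15) and the tensin gene TNS3 (-0.61 ± 0.088) were lower in TET2WT than in Mock. FERMT1 also stood at -0.72 ± 0.15 between TET2M and Mock, which did not pass (adjusted p = 0.307, limma). Between TET2WT and TET2M TNS3 passed and FERMT1 did not. Of 28 focal adhesion genes, CAV1 (-1.0 ± 0.18) and SRC (-0.56 ± 0.10) were lower in TET2WT than in Mock and GIT2 (0.76 ± 0.10) was higher. Of 12 tetraspanins and membrane partners CD9 (-0.51 ± 0.092) was lower. With the mean of their probe sets SRC (-0.15) and CD9 (-0.16) did not pass, and SRC did not pass after either further normalization. Against TET2M the paxillin relative LPXN (0.85 ± 0.11) was higher as well, at 0.49 with the mean of its probe sets. The largest adjusted p among the list genes that passed in limma was 0.0457, for TNS3 against TET2M.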

How the data were processed

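The values analysed are the deposited log2 values of probe sets, for which the submitters' processing notes name Affymetrix Expression Console. That they are log2 was judged from their range (1.56 to 13.78). What the authors used for summary, background correction and filtering is not stated in the labels. The sorted columns of the 6 arrays differ by at most 0.12, so the arrays share nearly 1 distribution, and a shift of most genes in 1 line would not be visible. Of 54675 probe sets, 62 are controls, and the annotation names 1 gene for 41097, several for 1801 and none for 11777. Symbols of 41043 were updated through their gene ID with RefSeq (GRCh38.p14). Probe sets whose mean fell below the 40th percentile (2.64) were left out, and 1 probe set per gene, that with the highest mean, was kept (14428 genes).

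Additive models of line and glucose over all 6 arrays (2 residual degrees of freedom, prior 3.97), and one with a TET2WT-specific glucose term (1 and 1.72), were fitted with limma 3.58.1 in R 4.3.3 and tested on simulated data. Tests were two-sided with Benjamini-Hochberg adjustment over all genes. In the simulated data the additive model recovered 0% of 1.5-fold changes between lines and 27.5% of those for glucose. Of 2-fold changes it recovered from 80.5% (TET2WT against TET2M) to 93.5% (glucose). Tables were handled with the R package data.table (version 1.17.8) and pandas 2.3.3, and figures drawn with Python 3.11.15 and matplotlib 3.10.9. Every member was to be named, in full where it passed or differed at least 2-fold between 2 arrays of the design, and of each list the genes that passed, up to 4. Alternatives covered the filter, the probe set per gene, the normalization, the variance trend, the model terms and the arrays used. Members and lists were chosen with earlier results of these data known.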

Additional observations from a re-analysis of the deposited data

Results flagged for a closer look

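Several members had differences of opposite sign, each at least 0.3 in size, in different lines or at different concentrations. Each rests on 2 arrays, and none of these oppositions was tested except where stated. ITGA1 differed between high and normal glucose by -0.30 in Mock and -0.51 in TET2WT and by 0.52 in TET2M. The other ITGA1 probe set above the filter gave -0.17, -0.26 and -0.12, with no opposite sign in TET2M. ITGA9 differed between TET2WT and TET2M by -0.58 at high and 0.52 at normal glucose. Its other probe sets above the filter gave 0.30 and 0.04 at high and 0.30 and 0.21 at normal glucose, with no opposition. ITGAD, at a low reading, had a glucose difference of 0.33 in TET2WT and -0.30 in TET2M, and ITGB2 one of 0.36 in TET2WT and -0.32 in Mock. The response of TET2WT against the mean of the other lines gave 0.59 ± 0.11 for ITGAD and 0.61 ± 0.12 for ITGB2, with an adjusted p of 0.531 in limma for each. The ITGB2 probe set used is of the kind open to cross-hybridisation. The other ITGB2 set above the filter gave 0.04 in TET2WT and 0.16 in Mock, and the mean of both a TET2WT-specific response of 0.29. LAMA2 differed between TET2WT and Mock by 0.40 at high and -0.32 at normal glucose, and its lowest reading was that of Mock at high glucose, 2.80. The further LAMA2 sets above the filter gave -0.10 and 0.17 at high and -0.20 and -0.11 at normal glucose.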

How the results depend on the processing

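The members' counts kept within 1.5 times under no filter, a filter at the 20th percentile, quantile normalization and cyclic loess normalization in all 5 comparisons. With a prior variance that follows intensity, 2 members were lower for glucose in place of 0, 2 were lower in TET2WT than in Mock in place of 0, and 4 were higher in TET2WT than in TET2M in place of 2. The last count was 1 with the mean of the gene's probe sets and 1 without the glucose term, where LAMA4 did not pass. With only the arrays of the 2 lines compared, the 2 members higher in TET2WT became 0 against Mock and 0 against TET2M, and with 1 array left out both counts ranged from 0 to 0. These fits have 1 residual degree of freedom in place of 2. LAMA5 kept its sign in 14 of 14 alternatives in both comparisons. Of the 25 passes among the list genes, 20 to 25 remained under the first 6 alternatives, 10 without the glucose term and 0 with fewer arrays. The TET2WT-specific response leaves no residual degree of freedom without an array and was not run so. No fit with a replicate block exists, since the labels number no replicates, and the additive model itself compares arrays within each line and each concentration. The number of arrays limits the precision.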
